A study of Mus musculus with 3 samples.

Results

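The transcriptome of effector memory CD8+ T cells was set against that of central memory CD8+ T cells from mouse spleen, gene by gene. The study sorted 3 populations (naive, central memory and effector memory CD8+ T cells) and sequenced RNA from 1 library of each. By the labels, all came from spleens of wild-type (WT) mice that had received no treatment. All 3 groups share tissue, genotype and treatment, and differ in the sorted subset alone as far as the labels go. The number of mice pooled into a library, their age and the sorting gates were not given in the sources used here. The members of the comparison were all genes that reached 5 CPM (a count scaled to the size of its library) in at least 1 of the 2 memory libraries, which were 9975 of the 25638 gene names in the deposited table. The naive library entered the scaling and serves below as a reference level. Both memory libraries used a single receptor beta segment almost alone and the naive library did not. Whether naive and memory cells came from the same animals or cell source is therefore uncertain. How the wild-type label applies to the source of the memory cells is uncertain too. Naive levels are given with that limit.

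Central memory T cells recirculate through lymph nodes, which they enter with the help of the chemokine receptor CCR7, and they keep a large capacity to divide on re-encounter with antigen. Effector memory T cells have lost lymph node homing receptors, patrol blood and peripheral tissue, and can release cytotoxic granules quickly. The factors TCF1 (Tcf7), KLF2, ID3 and BACH2 are known for holding CD8+ T cells in the recirculating, less differentiated state, and Blimp-1 (Prdm1), ID2 and T-bet (Tbx21) for driving effector differentiation.

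With 1 library in each group there is no replicate error, so no test of the conditions was possible and no p-value is given. A gene was called higher or lower in effector memory where its CPM ratio was at least 2 and the 95% exact (Clopper-Pearson) counting interval of that ratio excluded 1. That interval, given in brackets below as a range, covers the counting error of the 2 libraries and not the spread between mice, sorts or library preparations. For a gene with 0 counts on one side, a floor of 3 counts stood in for the 0 and the ratio is given as a lower bound. The libraries held 35846315 counts (central memory), 33087462 counts (effector memory) and 26876909 counts (naive), so 3 counts correspond to 0.0837, 0.0938 and 0.108 CPM.

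The memory libraries carried the same dominant T cell receptor beta variable segment, Trbv12-1, and its 3′ part is shown beside that of its near neighbour Trbv12-2 to make clear how far the 2 could be told apart by reads. Both sequences are the last 200 bases of the segment as annotated in GENCODE M21 on GRCm38 (chr6:41113550-41114067 and chr6:41118851-41119364, plus strand), and capitals mark the 24 bases at which these stretches differ. Over the 372 bases from the start codon the 2 segments are 88.2% identical.
Trbv12-1: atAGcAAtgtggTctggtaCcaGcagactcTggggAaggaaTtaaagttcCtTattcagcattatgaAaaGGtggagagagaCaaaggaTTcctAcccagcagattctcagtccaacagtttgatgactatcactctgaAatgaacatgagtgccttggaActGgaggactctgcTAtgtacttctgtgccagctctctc
Trbv12-2: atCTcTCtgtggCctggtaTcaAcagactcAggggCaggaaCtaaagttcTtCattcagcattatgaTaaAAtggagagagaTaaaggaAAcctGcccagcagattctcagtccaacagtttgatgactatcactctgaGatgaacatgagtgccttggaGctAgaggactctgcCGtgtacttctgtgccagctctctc
Trbv12-1 took 23853 of the 23937 counts on beta variable segments in central memory, or 99.6% (Clopper-Pearson interval 99.6% to 99.7%). It took 5007 of 5090 in effector memory, or 98.4% (98.0% to 98.7%), and 7.13% in the naive library, where Trbv12-2 took 7.30%. The share was thus nearly the whole of the family in both memory libraries, while the level was not the same: Trbv12-1 stood at 666 CPM in central memory and 157 CPM in effector memory, 4.25-fold lower (4.13 to 4.39). Among alpha variable segments, the near-identical Trav14 copies, whose reads may be divided among them arbitrarily, together took 45.1% of 1964 counts in central memory (42.8% to 47.3%), 26.7% of 640 in effector memory (23.3% to 30.3%) and 12.9% in naive cells. Delta variable segments together had 1461 counts (40.8 CPM) in central memory, 655 (20.5 CPM) in effector memory and 104 (3.74 CPM) in naive cells. In effector memory that was close to the 640 counts on alpha segments but under the 5090 counts on beta segments. Naive cells had 6502 alpha counts. The gamma segment Trgv2 was at 13.3 CPM in central memory, 22.8 CPM in effector memory and 0.431 CPM in naive cells. The 4 marker genes of gamma-delta T cells all stayed under 5 CPM in both memory libraries. They summed to 5.22 CPM in central memory, 2.10 CPM in effector memory and 1.04 CPM in naive cells. The part of gamma-delta T cells in these values was not tested.

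Promoters are shown next for 8 genes of glycolysis and hypoxia response, mitosis and the interferon response, chosen because a motif is known for each group, with the letters of a searched motif in capitals. Each is the 250 bases before the RefSeq transcription start (GRCm38.p6), printed in the direction of the gene. The first 4 belong to glycolytic and hypoxia response genes and were searched for ACGTG on both strands (CACGT on the other strand, so that CACGTG holds 2 overlapping matches), the core of the element bound by hypoxia-inducible factors. Of all 32851 promoters of this length, 16.6% hold ACGTG. It was present in 12 of 22 promoters of the hypoxia response genes (54.5%) and in 11 of 30 of the glycolytic enzymes (36.7%). A promoter was matched for 18 of the 22 measured hypoxia response genes and for all 18 measured glycolytic enzymes.
Bnip3 (chr7:138909507-138909756, minus strand): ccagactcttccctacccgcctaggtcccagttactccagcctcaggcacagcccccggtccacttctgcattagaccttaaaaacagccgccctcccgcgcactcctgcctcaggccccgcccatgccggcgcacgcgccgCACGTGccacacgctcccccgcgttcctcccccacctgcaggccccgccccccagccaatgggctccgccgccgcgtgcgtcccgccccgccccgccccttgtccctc
P4ha2 (chr11:54100674-54100923, plus strand): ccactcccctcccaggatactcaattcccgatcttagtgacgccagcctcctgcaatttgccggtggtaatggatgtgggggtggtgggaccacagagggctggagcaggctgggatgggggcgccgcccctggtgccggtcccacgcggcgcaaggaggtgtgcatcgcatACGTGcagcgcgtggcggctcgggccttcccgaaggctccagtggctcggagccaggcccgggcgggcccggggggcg
Pgk1 (chrX:106186850-106187099, plus strand): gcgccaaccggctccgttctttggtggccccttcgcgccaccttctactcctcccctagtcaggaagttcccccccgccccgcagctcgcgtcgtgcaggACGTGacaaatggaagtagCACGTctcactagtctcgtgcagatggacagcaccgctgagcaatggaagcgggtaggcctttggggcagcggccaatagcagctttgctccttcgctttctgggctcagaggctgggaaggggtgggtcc
Ldha (chr7:46845554-46845803, plus strand): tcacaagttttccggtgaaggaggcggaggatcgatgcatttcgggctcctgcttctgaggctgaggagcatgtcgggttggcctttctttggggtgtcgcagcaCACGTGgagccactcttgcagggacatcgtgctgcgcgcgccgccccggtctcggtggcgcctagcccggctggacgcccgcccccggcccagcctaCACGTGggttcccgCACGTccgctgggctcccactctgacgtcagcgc
The next 3 belong to mitotic genes and were searched for TTTGAA (or TTCAAA on the other strand), a cell cycle homology element. It is held by 16% of all promoters and by 10 of 31 promoters of the mitosis genes (32.3%). In DNA replication genes the E2F-type motif TTCCCGC (or GCGGGAA on the other strand) was present in 7 of 32 promoters (21.9%), against 3.82% of all. A promoter was matched for 30 of 35 measured mitosis genes and 27 of 32 measured replication genes.
Cdc20 (chr4:118437344-118437593, minus strand): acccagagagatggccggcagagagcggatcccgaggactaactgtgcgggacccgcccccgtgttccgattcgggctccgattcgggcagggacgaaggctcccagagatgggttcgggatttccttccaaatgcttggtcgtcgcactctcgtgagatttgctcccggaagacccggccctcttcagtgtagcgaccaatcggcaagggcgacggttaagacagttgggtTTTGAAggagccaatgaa
Ube2c (chr2:164769679-164769928, plus strand): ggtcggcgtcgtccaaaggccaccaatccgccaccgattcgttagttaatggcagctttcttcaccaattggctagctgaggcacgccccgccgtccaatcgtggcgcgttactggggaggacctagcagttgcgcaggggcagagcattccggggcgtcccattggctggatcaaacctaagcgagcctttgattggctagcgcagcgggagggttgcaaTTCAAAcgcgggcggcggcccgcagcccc
Mki67 (chr7:135716380-135716629, minus strand): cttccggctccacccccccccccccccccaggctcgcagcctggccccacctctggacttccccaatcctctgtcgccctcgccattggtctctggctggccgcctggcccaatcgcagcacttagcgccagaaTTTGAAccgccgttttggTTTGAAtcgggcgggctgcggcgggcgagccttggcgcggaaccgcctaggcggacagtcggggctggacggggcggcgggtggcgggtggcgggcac
The last belongs to an interferon-stimulated gene and was searched on both strands for the interferon-stimulated response element, taken as GAAA, any 2 bases and GAAA again. It is held by 2.98% of all promoters and by 12 of 25 promoters of the interferon-stimulated genes (48%), for 17 of whose 26 measured genes a promoter was matched.
Slfn5 (chr11:82951852-82952101, plus strand): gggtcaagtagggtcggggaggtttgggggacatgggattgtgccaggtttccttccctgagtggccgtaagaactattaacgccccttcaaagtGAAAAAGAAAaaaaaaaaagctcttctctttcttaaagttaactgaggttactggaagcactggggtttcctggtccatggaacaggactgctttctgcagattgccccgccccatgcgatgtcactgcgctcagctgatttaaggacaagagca
Each printed promoter holds its motif, but not every promoter searched did. Ldha has a second RefSeq start without ACGTG in this window, and so has a start of Vegfa. The response element was absent from this window in Ifitm1 and Ifitm3, and at a start of Trim30a. These matches describe letters in a window and do not show binding.

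Cell identity was read from marker genes. Cd3e, a chain of the T cell receptor complex, stood at 418 CPM in central memory and 335 CPM in effector memory. Cd8a, the co-receptor of cytotoxic T cells, stood at 1063 and 408 CPM, 2.60-fold lower in effector memory (2.55 to 2.66), and Cd8b1 at 539.6 and 276 CPM. Cd4 had 9 counts in each library. The CD4 and regulatory T cell markers, which include Cd4, Zbtb7b and Ctla4, summed to 141 CPM in central memory, 416 CPM in effector memory and 26.6 CPM in naive cells. Of the 3 measured members of that list, 2 were higher in effector memory and 0 lower. The part of CD4+ T cells in these values was not tested. Markers of B cells, neutrophils, mast cells, erythroid cells and platelets summed to under 7 CPM in both memory libraries. Dendritic cell markers, which include Itgax and the interferon-inducible Bst2, summed to 171 CPM in central memory and 103 CPM in effector memory. Zbtb7b, the factor ThPOK of the CD4 lineage, was at 37.4 and 93.6 CPM, and the endothelial and T cell adhesion gene Pecam1 at 171 and 53.8 CPM. Of the markers that set central from effector memory, Ccr7 and Il7r were lower in effector memory, with values below. Klrg1, a receptor of terminally differentiated effectors, went against the labels but was low in both, at 2.62 and 0.782 CPM, and Tbx21 and Ccl5 also had the lower level in effector memory.

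Across the 9975 genes, 1479 were called higher in effector memory (14.8%) and 1273 were called lower (12.8%), which together is 27.6% of the genes compared. The log2 ratio of effector memory over central memory had a median of −0.06, a 5th percentile of −1.60 and a 95th percentile of 2.33, so the upper tail reached farther than the lower. At a ratio of at least 4, 635 genes were higher (6.37%) and 289 lower (2.9%), and at a ratio of at least 16 the numbers were 153 (1.53%) and 46 (0.461%). Of the 9021 genes that reached 5 CPM in both libraries, 991 were higher and 980 lower. Another 568 genes reached that level in effector memory only and 386 in central memory only, and the calls among these follow in part from the level itself. The genes called higher held 22.6% of the effector memory CPM and 6.40% of the central memory CPM, while those called lower held 5.47% and 15.6%.

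**Figure D1:**
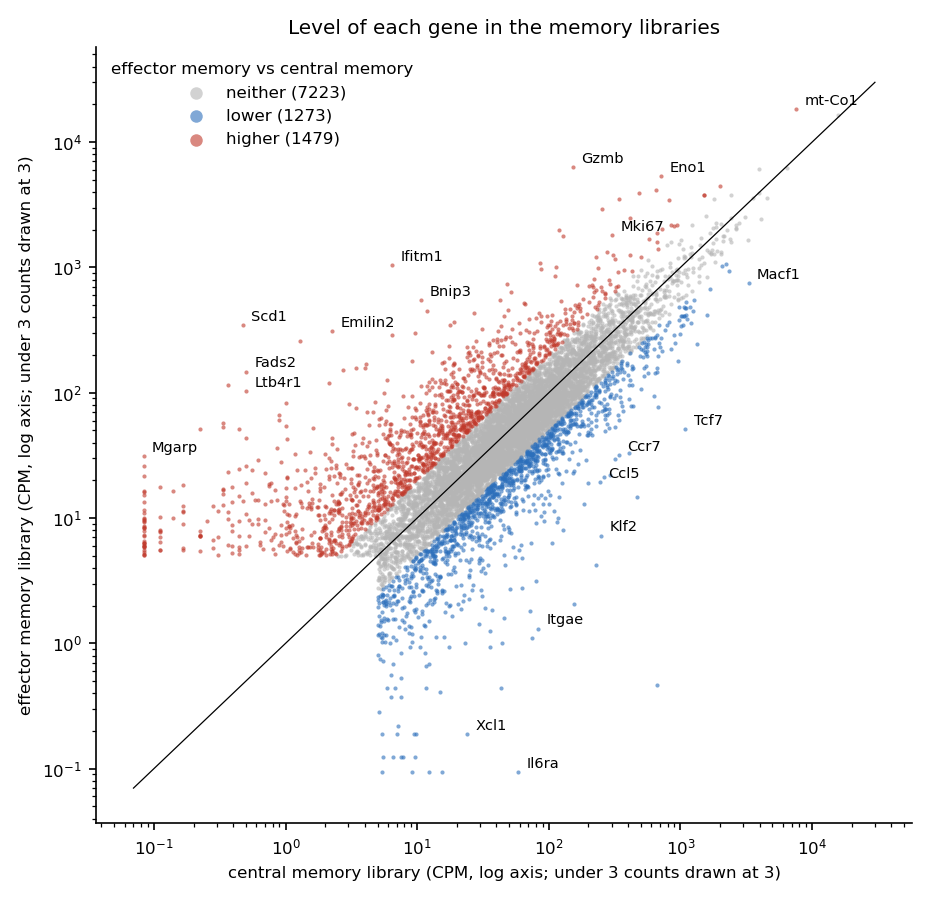
Level of each of the 9975 genes in the central memory library (x axis, CPM, log scale) and the effector memory library (y axis, CPM, log scale). Each point is a gene, red where called higher in effector memory (1479), blue where called lower (1273) and grey otherwise, values under 3 counts are drawn at 3 counts, and the line marks equal levels. Il6ra lies near the lower edge, and Scd1, Fads2 and Mgarp toward the left.

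The genes lower in effector memory began with the lymph node homing and naive genes, of which 0 of 18 measured members were higher and 12 lower, with a median log2 ratio of −1.50. Of the 18, 3 passed the level through central memory only, and 9 of the other 15 were lower. In bulk RNA, fewer cells of a type and less RNA per cell cannot be told apart. Ccr7, the receptor that draws cells into lymph nodes, was at 339 CPM in central memory, 31.9 CPM in effector memory and 373 CPM in naive cells, 10.6-fold lower (9.98 to 11.4). S1pr1, the receptor through which lymphocytes leave lymphoid organs, was at 317, 29.6 and 522 CPM, 10.7-fold lower (10.04 to 11.5). Entry and exit receptors were therefore both low in effector memory. Il6ra, the alpha chain of the interleukin-6 receptor, had 2107 counts (58.8 CPM) in central memory and 0 in effector memory, at least 627-fold lower. Il7r, the survival receptor of naive and memory cells, was at 266 CPM in central memory, 74.8 CPM in effector memory and 522 CPM in naive cells. Central memory lay between naive and effector memory cells for Ccr7, S1pr1, Il6ra and Il7r.

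Transcription factors of the memory and progenitor state were lower as a group, with 14 of 19 measured members lower, 0 higher and a median log2 ratio of −1.60. Of these, 5 passed the level through central memory only, Id3 and Bcl6 among them, and 10 of the 14 that reached it in both libraries were lower. Tcf7, the factor TCF1 that sustains self-renewing memory cells, was at 1091 CPM in central memory, 51.5 CPM in effector memory and 1449 CPM in naive cells, 21.2-fold lower (20.2 to 22.3). Klf2, which drives S1pr1 transcription, was at 250.4, 7.25 and 512 CPM, 34.5-fold lower (30.3 to 39.5). Klf3, a related repressor, was at 105, 6.29 and 301 CPM, 16.7-fold lower (14.5 to 19.4). Both KLF factors were low in effector memory alone among the 3 libraries, whereas Klf6 was at 128 CPM in central memory and 169 CPM in effector memory. Id3, an inhibitor of E proteins, was at 62.3 CPM in central memory, 4.78 CPM in effector memory and 21 CPM in naive cells, so here central memory was the highest of the 3. Foxo1, which acts upstream of Klf2 and Il7r, was at 224 CPM in central memory and 96.0 CPM in effector memory, 2.33-fold lower (2.24 to 2.43), or −0.82 on the log2 scale and not called with the length and GC trend removed, while its relative Foxo3 was at 188 and 125 CPM and was not called.

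Effector transcription factors had 6 of 13 members higher, 1 lower, 6 not called and a median log2 ratio of 0.83. Nfil3, a basic leucine zipper factor, was at 13 CPM in central memory, 213 CPM in effector memory and 1.08 CPM in naive cells, 16.4-fold higher (14.9 to 18.1). Prdm1, which encodes Blimp-1, was at 5.67, 55.8 and 1.15 CPM, 9.86-fold higher (8.52 to 11.5), and its antagonist Bcl6 was at 9.66, 1.78 and 14.5 CPM, 5.42-fold lower (4.09 to 7.30). The Prdm1 and Bcl6 levels thus changed order between the memory libraries. Bhlhe40, a regulator of cytokine production, was at 65.9 CPM in central memory and 509 CPM in effector memory, and Irf8 was at 18.9 and 111 CPM. Ikzf3, the lymphoid factor Aiolos, went against the group at 353 and 83.8 CPM, 4.21-fold lower (4.04 to 4.39). The T-box factors did not pass the rule: Tbx21 (T-bet) was at 86.3 CPM in central memory and 55.0 CPM in effector memory, and Eomes at 74.4 and 79.9 CPM. Id2 was at 172 CPM in central memory and 306 CPM in effector memory, a ratio of 1.78 (1.72 to 1.84) that also fell short of 2.

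**Figure D2:**
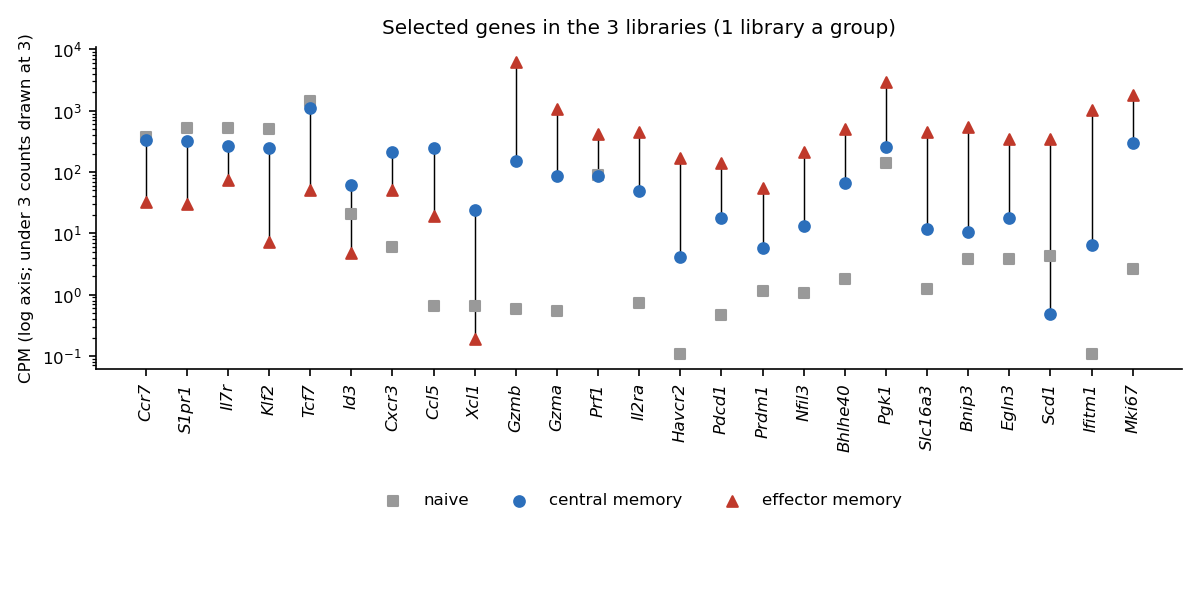
CPM (log axis) of 25 genes in the naive (grey squares), central memory (blue circles) and effector memory (red triangles) libraries, 1 library a group, with a line joining the memory libraries and values under 3 counts drawn at 3 counts. Genes from Ccr7 to Xcl1 sit lower in effector memory, and genes from Gzmb to Mki67 sit higher. The former are homing and memory factor genes, the chemokine receptor gene Cxcr3 and the chemokine genes Ccl5 and Xcl1.

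Cytotoxic effector genes were higher in 10 of 23 measured members and lower in 3, with a median log2 ratio of 0.84, and their summed level was 2719 CPM in central memory, 11179 CPM in effector memory and 1495 CPM in naive cells. Gzmb (chr14:56258838-56262260), the granule protease that cleaves caspases in target cells, was at 152 CPM in central memory, 6317 CPM in effector memory and 0.575 CPM in naive cells, 41.6-fold higher (40.5 to 42.7). Per kilobase of exon it ranked 3 among all genes in effector memory and 323 in central memory. Gzma, a tryptase of the same granules, was at 85.3, 1084 and 0.539 CPM, 12.7-fold higher (12.2 to 13.2). Gzmc and Gzme, from a cluster of similar granzyme genes on chromosome 14 whose reads can be hard to assign, were at 48.3 and 16.1 CPM in central memory and 743 and 119 CPM in effector memory. Prf1, the pore former perforin, was at 87.1 CPM in central memory, 412 CPM in effector memory and 90.4 CPM in naive cells. It was 4.73-fold higher (4.55 to 4.92), a smaller ratio than those of Gzmb, Gzma, Gzmc and Gzme. Gzmm, a granzyme of innate-like lymphocytes, was lower, at 8.88 and 2.13 CPM. Also lower were the death ligand gene Tnfsf10, at 90.2 and 27.6 CPM, and the granule cathepsin gene Ctsw, at 540.5 and 232 CPM. Gzmk had 18 and 84 counts and stayed under 5 CPM in both libraries.

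Chemokine receptors of inflamed tissue were divided, with 3 of 9 measured members higher, 3 lower and a median log2 ratio of 0.07 that lay near that of all genes. Cxcr3, which guides T cells along interferon-induced chemokines, was at 209 CPM in central memory, 51.4 CPM in effector memory and 5.93 CPM in naive cells, 4.07-fold lower (3.86 to 4.30). Cxcr5, the receptor for entry into B cell follicles, had 552 counts (15.4 CPM) in central memory and 0 in effector memory, at least 164-fold lower. Ccr4, a receptor linked to skin homing, was at 0.307 and 7.07 CPM, 23-fold higher (12.6 to 46.8), and passed the level through effector memory. The other receptors higher in effector memory were Ccrl2, at 1.90 and 7.82 CPM, and Cxcr4, at 13.5 and 40.4 CPM, the latter named after its value was seen. Ccl5, a chemokine stored by memory CD8+ T cells, was at 244 CPM in central memory, 19.3 CPM in effector memory and 0.647 CPM in naive cells, 12.7-fold lower (11.7 to 13.8). Xcl1, which attracts cross-presenting dendritic cells, was at 24.0, 0.188 and 0.647 CPM, 128-fold lower (58.4 to 349). For both ligands the central memory library was the highest of the 3. Tnfsf8, the CD30 ligand, was at 261 CPM in central memory and 21.4 CPM in effector memory, while its receptor Tnfrsf8 (CD30) was at 0.335 and 52.8 CPM. Lta, the cytokine lymphotoxin alpha, was higher, at 8.88 and 35.1 CPM. Of the 10 measured chemokines and cytokines, 4 were higher and 4 lower.

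Cytokine receptors were higher in 4 of 20 members and lower in 5, against 14.8% and 12.8% of all compared genes. Their median log2 ratio was −0.60. Il2ra, the alpha chain of the high-affinity interleukin-2 receptor, was at 48.6 CPM in central memory, 456 CPM in effector memory and 0.719 CPM in naive cells, 9.39-fold higher (8.93 to 9.87). It moved opposite to Il7r, which was 3.55-fold lower (3.40 to 3.72). Il12rb1 and Il12rb2, the chains of the interleukin-12 receptor, were at 40.1 and 45.8 CPM in central memory and at 213 and 126 CPM in effector memory. Il18rap, of the interleukin-18 receptor, was at 94.8 and 199 CPM. Both receptors are known for inflammatory activation without antigen. Il27ra was lower, at 367 CPM in central memory and 71.0 CPM in effector memory. Among feedback genes of cytokine signalling, Socs3 was at 117 and 22.7 CPM, 5.15-fold lower (4.76 to 5.58), while Socs2 was at 18.6 and 51.7 CPM, 2.77-fold higher (2.53 to 3.04), and 10 of the 13 members, which include PIM kinases, were not called.

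Inhibitory receptors were higher in effector memory in 10 of 18 members and lower in 2, with a median log2 ratio of 1.27. Havcr2, which encodes TIM-3, was at 4.08 CPM in central memory, 168 CPM in effector memory and 0 in naive cells, 41.2-fold higher (35 to 48.9). Pdcd1, which encodes PD-1, was at 17.9, 141 and 0.467 CPM, 7.88-fold higher (7.26 to 8.58). Entpd1, the ectonucleotidase CD39, was at 23.2, 125 and 0.791 CPM, 5.38-fold higher (4.99 to 5.81). All 3 were lowest in naive cells and highest in effector memory. Btla, an inhibitory receptor of resting lymphocytes, went the other way at 63.1 CPM in central memory, 2.78 CPM in effector memory and 131 CPM in naive cells, 22.7-fold lower (18.3 to 28.3). Cd200 was at 10.9 and 1.72 CPM in the memory libraries, and both members called lower passed the level through central memory. Havcr2 passed it through effector memory only. Of the 15 members that reached the level in both libraries, 9 were higher and 0 lower.

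Costimulatory receptors gave 3 of 17 higher and 8 lower, with a median log2 ratio of −0.62. Tnfrsf9 (4-1BB), which appears on activated T cells, was at 27.0 CPM in central memory, 437 CPM in effector memory and 5.93 CPM in naive cells, 16.2-fold higher (15.1 to 17.3). Tnfrsf4 (OX40) was at 9.80 and 40.5 CPM, and Slamf7 at 57.0 and 181 CPM. Cd27, a TNF receptor of naive and central memory cells, was at 288 CPM in central memory, 52.1 CPM in effector memory and 281 CPM in naive cells, 5.53-fold lower (5.25 to 5.83). Slamf6, a receptor found on progenitor-like T cells, was at 92.7, 9.44 and 145 CPM, 9.81-fold lower (8.72 to 11.1). Crtam, a receptor that activation induces, was also lower, at 31.9 and 3.97 CPM. Of the 8 lower members, 2 passed the level through central memory only.

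Proximal T cell receptor genes had 0 of 23 members higher and 3 lower, against 14.8% and 12.8% of all genes. The lower ones were Cd8a and the scavenger-like receptors Cd5 and Cd6, which restrain T cell receptor signalling and were at 200.1 and 266 CPM in central memory and 62.1 and 61.5 CPM in effector memory. Immediate early genes, which follow receptor signalling within minutes, had 3 of 24 members higher and 10 lower and a median log2 ratio of −0.67. Of the 19 that reached the level in both libraries, 2 were higher and 7 lower. Egr2 was at 9.52 CPM in central memory, 0.188 CPM (6 counts) in effector memory and 17.1 CPM in naive cells, 50.7-fold lower (23.1 to 139). Egr3 was at 16, 1.13 and 37.8 CPM, 14.2-fold lower (10.1 to 20.5). Nfkbia, the inhibitor of NF-κB, was at 77.4, 15.2 and 93.2 CPM, 5.10-fold lower (4.63 to 5.62). For these genes effector memory was the lowest library and naive the highest. Ier3 went against them at 15.1 CPM in central memory and 55.5 CPM in effector memory, as did Fosl2 at 41.1 and 109 CPM and Atf3 at 0.447 and 5.13 CPM. The MAPK phosphatase and Sprouty genes, which dampen the same pathway, had 5 of 15 higher, 2 lower and a median log2 ratio of 0.65, which did not hold at a minimum of 20 CPM (−0.068). Of the 12 that reached the level in both libraries, 3 were higher. The higher ones included Dusp6 at 24.6 and 79.8 CPM and Dusp4 at 1.45 and 12.0 CPM.

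Receptors of the killer lectin-like and NK type included 6 lower and 0 higher members out of 11 measured, and the 6 passed the level through central memory alone. Ncr1, which encodes the NK cell receptor NKp46, had 437 counts (12.2 CPM) in central memory and 0 in both effector memory and naive cells, at least 130.0-fold lower. Klrb1c (NK1.1) was at 33.0 CPM in central memory, 1.91 CPM in effector memory and 0.216 CPM in naive cells, 17.3-fold lower (13.4 to 22.7). Tyrobp, the adaptor of activating NK receptors, was at 5.02, 0.813 and 0.395 CPM. The NK cell marker list, whose 5 measured members all belong to the receptors just described, had a summed level of 73.1 CPM in central memory, 17.2 CPM in effector memory and 1.19 CPM in naive cells. Its members Fcer1g and Fcgr3 had log2 ratios of 0.39 and 0.22 and were not lower. Itgax, an integrin that marks dendritic cells and some NK and T cells, moved the same way at 115, 9.32 and 0.359 CPM. The part of other cells in these values was not tested.

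The interferon-related genes did not form a block. Ifitm1, Ifitm2 and Ifitm3, neighbouring genes on chromosome 7 for membrane proteins that restrict virus entry, were among the most extreme genes of the whole comparison. Ifitm1 was at 6.42 CPM in central memory, 1044 CPM in effector memory and 0 in naive cells, 163-fold higher (143 to 186). Ifitm3 was at 1.28, 257 and 0.431 CPM, 200.4-fold higher (150.1 to 274). Ifitm2 was at 0.363, 116 and 0 CPM, 319.7-fold higher (187 to 601). Ifitm2 and Ifitm3 were therefore close to absent from both other libraries. Ifitm1 was absent from naive cells but above 5 CPM in central memory. All these values carry the limit that similar copies can share reads. The interferon-stimulated genes, the group with the response element shown for Slfn5, were lower in 8 of 26 measured members and higher in 2, with a median log2 ratio of −0.65, and 5 of the 23 that reached the level in both libraries were lower. Slfn5 was at 12.5 CPM in central memory, 2.22 CPM in effector memory and 201 CPM in naive cells, 5.62-fold lower (4.37 to 7.33). Usp18, the feedback inhibitor of the interferon receptor, was at 12.0, 2.10 and 72.0 CPM, 5.74-fold lower (4.43 to 7.54). Ifi203, a nuclear interferon-inducible protein, was at 405, 89.1 and 604 CPM, 4.54-fold lower (4.36 to 4.73). For all 3 the order was naive, central memory, effector memory from high to low. Mx1 and Isg20 went against the group, at 15.8 and 12.2 CPM in central memory and 47.0 and 44.9 CPM in effector memory. Guanylate-binding and immunity-related GTPases were higher in 2 of 17 members and lower in 1, against 14.8% and 12.8% of all compared genes. GIMAP GTPases, survival factors of lymphocytes, were lower in 2 of 8, Gimap3 at 1684 and 669 CPM and Gimap8 at 362 and 179 CPM. Gimap8 was not called with DESeq2 size factors (log2 ratio −0.94).

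Antigen presentation genes of class I were called in 2 of 21 members, against 27.6% of all compared genes called in either direction. They were Pdia3, higher at 336 and 713 CPM, and H2-T23, lower at 565 and 247 CPM. Pdia3 lost its call with the length and GC trend removed (log2 ratio 0.99). Of the class II genes, 5 of 10 were measured, and the 3 called ones each passed the level through a single library. H2-Ab1 was at 0.893 CPM in central memory, 66.9 CPM in effector memory and 7.55 CPM in naive cells, 74.9-fold higher (52.9 to 109.7). H2-DMb2 was at 0.447, 7.16 and 2.55 CPM, and H2-Ob was lower, at 15.9 and 2.63 CPM. Their usual partner H2-Aa had 10 counts in central memory and 0 in effector memory, and Cd74 had 66 and 10 counts, so they did not move with H2-Ab1. These partners were looked up after the H2-Ab1 value was seen. Monocyte and macrophage markers summed to 4.27 CPM in central memory and 24.1 CPM in effector memory, of which Cd68 gave 4.05 and 21.1 CPM and Cd14 0.112 and 3.03 CPM. B cell markers summed to 6.56 and 4.25 CPM. The part of such cells in the class II values was not tested.

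Of the gene lists compared, the glycolytic enzymes had the largest gain in summed level in effector memory. Of 18 measured glycolytic enzymes, 13 were higher and 0 lower, the median log2 ratio was 2.78, and the summed level was 4011 CPM in central memory, 26616 CPM in effector memory and 2425 CPM in naive cells. Eno1, which makes phosphoenolpyruvate, was at 717, 5338 and 437 CPM, 7.44-fold higher (7.34 to 7.54). Ldha, which reduces pyruvate to lactate, was at 486, 3911 and 338 CPM, 8.04-fold higher (7.92 to 8.17). Pgk1, the first ATP-yielding enzyme of the pathway, was at 254, 2929.6 and 138 CPM, 11.5-fold higher (11.3 to 11.8). In each the central memory level lay closer to the naive than to the effector memory level. Tpi1 was at 128 and 1797 CPM, and Aldoc at 9.07 and 179 CPM. Of the hexokinases that start the pathway, Hk2 was at 24.0 CPM in central memory and 231 CPM in effector memory, 9.59-fold higher (8.94 to 10.3), while Hk1 was at 265 and 465 CPM, a ratio of 1.76 (1.71 to 1.80).

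Glucose and lactate transport genes had 4 of 13 members higher and 2 lower, the lower ones through central memory only. Slc2a3 (GLUT3) was at 113 CPM in central memory, 1003 CPM in effector memory and 79.6 CPM in naive cells, 8.86-fold higher (8.57 to 9.15), and Slc2a1 (GLUT1) was at 46.3, 269 and 32.9 CPM, 5.80-fold higher (5.50 to 6.11). Both glucose importers moved together. Slc16a3, the lactate exporter MCT4, was at 11.8, 445 and 1.22 CPM, 37.6-fold higher (34.1 to 41.5). Its relative Slc16a1 (MCT1) was at 61.8 and 110.5 CPM, a ratio of 1.79 (1.70 to 1.89), so MCT4 was the lower of the pair in central memory and the higher in effector memory. Slc16a5 was at 7.12 CPM in central memory and 0.219 CPM in effector memory, and the pyruvate dehydrogenase kinase Pdk2 at 14.4 and 2.97 CPM.

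Hypoxia response genes, many of which hold the ACGTG core printed above, were higher in 16 of 22 members and lower in 0, with a median log2 ratio of 2.33, and 5 of the 22 passed the level through effector memory only. Bnip3, a mitophagy receptor, was at 10.7 CPM in central memory, 544 CPM in effector memory and 3.77 CPM in naive cells, 50.9-fold higher (46.0 to 56.5). P4ha2, a collagen prolyl hydroxylase subunit, was at 0.223, 51.4 and 0 CPM, 230.0-fold higher (116 to 534). Egln3, an oxygen-sensing hydroxylase that is itself induced by low oxygen, was at 17.7, 344 and 3.88 CPM, 19.5-fold higher (18.0 to 21.1). Vegfa was at 3.04 and 82.0 CPM, and Ak4, a mitochondrial adenylate kinase, at 1.005 and 83.5 CPM. Mgarp, a mitochondrial protein known to respond to hypoxia, had 0 counts in central memory and 1001 (31.3 CPM) in effector memory, which is at least 374-fold higher. These genes were close to absent or low in both naive and central memory cells. The transcript of the oxygen-regulated factor itself, Hif1a, was at 136 CPM in central memory and 198 CPM in effector memory, a ratio of 1.46 (1.4 to 1.51), and was not called. Hif1a was singled out after its value was seen.

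Cholesterol synthesis and uptake genes had 20 of 24 members higher and 0 lower, with a median log2 ratio of 1.86 and a summed level of 997 CPM in central memory and 3466 CPM in effector memory. Of the 24, 1 passed the level through effector memory only, and 19 of the other 23 were higher. Hmgcs1, which condenses the first committed intermediate, was at 64.4 and 521 CPM, 8.09-fold higher (7.75 to 8.46). Idi1 was at 13.7 and 121 CPM, and Cyp51, a sterol demethylase, at 26.5 and 232 CPM. Among fatty acid synthesis and desaturation genes, 7 of 15 were higher and 1 lower, and 4 of the 11 that reached the level in both libraries were higher. The enzymes of chain synthesis Acly, Acaca and Fasn were not called, with log2 ratios of 0.21, 0.67 and 0.53. Scd1 (chr19:44394455-44407879), a stearoyl-CoA desaturase, was at 0.475 CPM in central memory, 347 CPM in effector memory and 4.24 CPM in naive cells, 732-fold higher (457 to 1256). Its neighbour and paralogue Scd2 was at 119, 2006 and 178 CPM, 16.8-fold higher (16.3 to 17.3). Fads2, a desaturase of polyunsaturated fatty acids, was at 0.502, 147 and 0 CPM, 293-fold higher (185 to 496). Scd1 and Fads2 gave the largest ratios of the fatty acid synthesis list. Elovl7 was lower, at 10.9 and 2.63 CPM. Fatty acid oxidation genes differed little, with 2 of 20 higher and 0 lower. They were Acadl, a long-chain acyl-CoA dehydrogenase, at 71.1 and 221 CPM, and the lipid-sensing receptor gene Pparg, with 0 counts in central memory and 430 (13.4 CPM) in effector memory, which is at least 161-fold higher.

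Genes of serine and one-carbon metabolism and of the ATF4 response were higher in 10 of 20 members and lower in 0. Of the 20, 2 passed the level through effector memory only, Pycr1 among them, and 9 of the other 18 were higher. Asns, asparagine synthetase, was at 14.8 CPM in central memory, 111 CPM in effector memory and 0.431 CPM in naive cells, 7.52-fold higher (6.86 to 8.25). Psat1, of serine synthesis, was at 60.2, 301 and 33.9 CPM, and Pycr1, of proline synthesis, at 0.140, 16.4 and 0.575 CPM. Atf4 itself was at 95 CPM in central memory, 268 CPM in effector memory and 204 CPM in naive cells, so central memory was the lowest of the 3. Amino acid transporters were called higher in 2 of 13, near the 14.8% of all compared genes, and lower in 1. The higher ones were Slc7a5 at 57.7 and 211 CPM and Slc1a4 at 0.279 and 12.6 CPM. Slc43a1 was the lower one, at 6.84 and 1.56 CPM. Slc1a4 passed the level through effector memory only, and Slc43a1 through central memory only. Chaperones and unfolded protein response genes had 9 of 25 higher and 0 lower, with Hsp90aa1 at 317 and 1172 CPM and Xbp1 at 39.5 and 129.6 CPM. Redox and iron genes had 9 of 20 higher, including the antioxidants Txn1 at 105 and 419 CPM and Srxn1 at 2.46 and 19.0 CPM, and 1 lower, the glutathione synthesis gene Gclc at 75.8 and 32.6 CPM. Of these 20, 2 passed the level through effector memory only, Srxn1 among them. In the other 18, 7 were higher and 1 lower.

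Mitochondrially encoded genes were higher in 8 of 10 measured members, with a median log2 ratio of 1.36. mt-Co1, a subunit of cytochrome oxidase, was at 7525 CPM in central memory, 18373 CPM in effector memory and 11206 CPM in naive cells, 2.44-fold higher (2.43 to 2.45), and ranked 1 of all genes per kilobase in effector memory. Mitochondrial transcripts together made up 1.29% of counts in central memory, 3.07% in effector memory and 2.16% in naive cells, so the central memory library was the low one. Nuclear genes of oxidative phosphorylation had 0 of 32 lower, a median log2 ratio of 0.52 and 5 higher, near the 14.8% of all compared genes. They included the electron carrier Cycs at 49.5 and 116 CPM and the ATP synthase subunit Atp5b at 675 and 1389.9 CPM. When the trend of the ratio with transcript length and GC content was removed, the mitochondrially encoded genes called higher went from 8 to 1 and the nuclear ones from 5 to 0. None of 40 ribosomal protein genes was called, with a median log2 ratio of −0.19, but 4 were lower once that trend was removed.

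**Figure D3:**
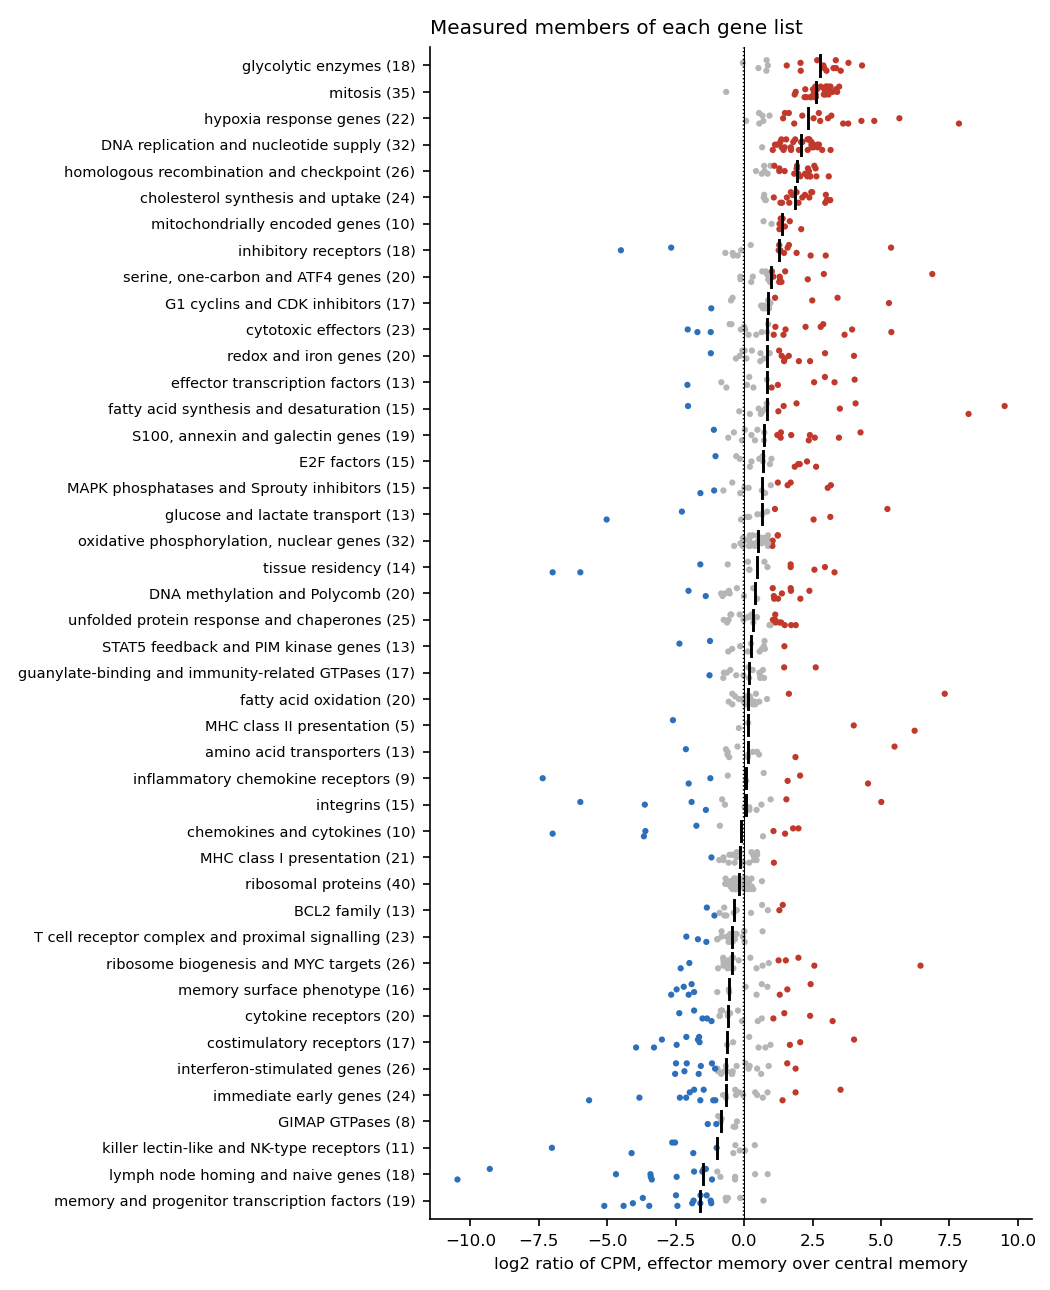
Log2 ratio of effector memory over central memory (x axis) for each measured member of the gene lists with at least 5 measured members, with the number measured in brackets. Points are genes, red where called higher, blue where called lower and grey otherwise, the black bars are list medians, the thin line marks 0 and the dotted line is the median of all compared genes (−0.06). Glycolytic, mitotic and hypoxia response genes have the highest medians (2.78, 2.62 and 2.33), and memory transcription factors the lowest (−1.60).

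Of the gene lists compared, those of mitosis and DNA replication had the largest shares of members called higher. Mitosis genes were higher in 34 of 35 members, with a median log2 ratio of 2.62 and a summed level of 1554 CPM in central memory, 9256 CPM in effector memory and 174 CPM in naive cells. Both memory libraries therefore lay above naive cells. Mki67, which marks cycling cells and whose promoter is printed above, was at 301, 1819 and 2.62 CPM, 6.04-fold higher (5.91 to 6.16). Bub1, a spindle checkpoint kinase, was at 15.5, 172 and 0.144 CPM, 11.1-fold higher (10.2 to 12.1). Aurka, the centrosomal kinase Aurora A, was at 10.7, 113 and 2.66 CPM, 10.5-fold higher (9.48 to 11.7). Cenpe, a kinetochore motor, was at 31.2 CPM in central memory and 319.7 CPM in effector memory. The exception, named after its value was seen, was the securin gene Pttg1, at 24.1 CPM in central memory, 15.3 CPM in effector memory and 24.7 CPM in naive cells.

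DNA replication and nucleotide supply genes were higher in 31 of 32 members, with a median log2 ratio of 2.09. Of the 32, 2 passed the level through effector memory only, Gins1 among them, and 29 of the other 30 were higher. Pclaf, a partner of the sliding clamp PCNA, was at 45.9 CPM in central memory, 409 CPM in effector memory and 0.108 CPM in naive cells, 8.91-fold higher (8.47 to 9.39). Gins1 and Mcm10, of the replicative helicase machinery, were at 4.41 and 15.2 CPM in central memory and 31.8 and 97.7 CPM in effector memory. Homologous recombination and checkpoint genes had 20 of 26 members higher and 0 lower, among them the checkpoint kinase Chek1 at 7.34 and 45.7 CPM. Of the 26, 1 passed the level through effector memory only, and 19 of the other 25 were higher. E2F-linked factors were higher in 5 of 15 and lower in 1. Mybl2 was at 18.0 and 111 CPM and the repressor E2f8 at 21.1 and 104 CPM, while E2f5, at 9.88 and 4.78 CPM, was the lower one, which DESeq2 size factors took just under a ratio of 2 (log2 ratio −0.97). The S-phase and M-phase gene sets moved together, and removal of the length and GC trend left 34 of 35 mitosis genes and 31 of 32 replication genes called higher.

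Regulators of the G1 phase were less uniform, with 4 of 17 higher and 1 lower. Cdkn1a, the CDK inhibitor p21, was at 3.99 CPM in central memory, 156 CPM in effector memory and 0.0719 CPM in naive cells, 39.1-fold higher (33.1 to 46.5). Cdkn2a, which encodes p16 and ARF, was at 1.28, 13.7 and 0 CPM, 10.6-fold higher (7.84 to 14.8). Both passed the level through effector memory only, and the inhibitor genes Cdkn1b, Cdkn2c and Cdkn2d were not called. Ccne2, a cyclin of S-phase entry, was at 5.67 and 31.8 CPM. Ccnd2 was lower, at 640.0 CPM in central memory and 278 CPM in effector memory, 2.30-fold lower (2.24 to 2.36), a call that was lost with the length and GC trend removed (log2 ratio −0.97), and Ccnd3 was at 218 and 360.5 CPM with no call. Myc was at 303 CPM in central memory and 156 CPM in effector memory, a ratio just short of 2 at 1.94-fold lower (1.87 to 2.003), whereas Mycn was at 0.502 and 43.7 CPM, 86.9-fold higher (54.8 to 147). Of 26 ribosome biogenesis and MYC target genes, 5 were higher and 2 lower, and their median log2 ratio was −0.46.

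**Figure D4:**
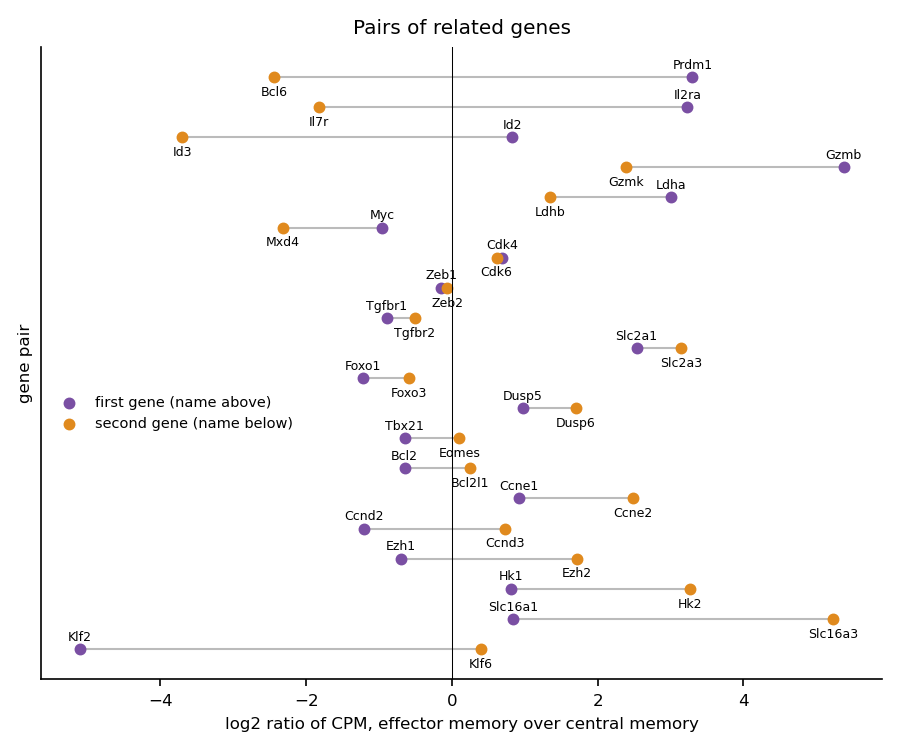
Log2 ratio of effector memory over central memory (x axis) for 20 pairs of related genes, one row a pair, with the first gene in purple and the second in orange. Prdm1 and Bcl6 (3.30 and −2.44), Il2ra and Il7r (3.23 and −1.83) and Klf6 and Klf2 (0.40 and −5.11) lie on opposite sides of 0, and Zeb1 and Zeb2 lie near 0.

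Survival genes of the BCL2 family had 2 of 13 members higher and 2 lower, shares near those of all genes (14.8% and 12.8%). Mcl1, which protects T cells from death, was at 553 CPM in central memory and 215 CPM in effector memory, 2.57-fold lower (2.50 to 2.64), and its antagonist Bcl2l11 (BIM) was at 197 and 92.9 CPM, 2.12-fold lower (2.03 to 2.22). With the length and GC trend removed, Bcl2l11 (log2 ratio −0.92) and Bcl2a1d (0.89) were no longer called. Bcl2 was at 958 CPM in central memory, 612 CPM in effector memory and 294 CPM in naive cells. Pmaip1 (NOXA) was higher, at 11.2 and 27.2 CPM, and so was Bcl2a1d, one of several near-identical copies, at 2.40 and 6.38 CPM.

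Adhesion and surface genes were mixed. Among integrins, 2 of 15 were higher and 4 lower, against 14.8% and 12.8% of all compared genes. Of the 12 that reached the level in both libraries, 0 were higher and 3 lower. Itgae, the CD103 chain that binds E-cadherin, was at 83.2 CPM in central memory, 1.31 CPM in effector memory and 272 CPM in naive cells, 63.3-fold lower (46.7 to 88.0). Itga4 was at 348, 92.0 and 477 CPM, and Itgb5 was higher, at 0.223, 7.19 and 0 CPM. The S100, annexin and galectin genes were higher in 9 of 19 members and lower in 1, with a median log2 ratio of 0.74, and 6 were higher after removal of the length and GC trend. Lgals3, galectin-3, was at 19.1 CPM in central memory, 364 CPM in effector memory and 0 in naive cells, 19.0-fold higher (17.6 to 20.6). Anxa2, a membrane-binding annexin, was at 87.7, 965 and 2.91 CPM, 11-fold higher (10.6 to 11.4). Vim, the intermediate filament vimentin, was at 412 and 2464 CPM. The monocyte and macrophage markers given above were also higher in effector memory, and their part was not tested. Of the memory surface genes, Cd44 was at 45.8, 113 and 2.95 CPM and Ly6a (Sca-1) at 170.1, 507 and 39.7 CPM, both higher in effector memory, while Nt5e (CD73) was at 69.2, 15 and 79.1 CPM. In all, 3 of 16 memory surface genes were higher and 6 lower. Of 14 genes tied to tissue residency, a list that shares members with others above, 5 were higher and 3 lower, the lower ones through central memory only.

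DNA methylation and Polycomb genes were higher in 9 of 20 members and lower in 2. Uhrf1, which guides maintenance methylation after replication, was at 83.5 CPM in central memory, 436 CPM in effector memory and 7.69 CPM in naive cells, 5.22-fold higher (5.01 to 5.43). Ezh2, the main histone H3 lysine methyltransferase of Polycomb in dividing cells, was at 74.9 and 245 CPM, 3.27-fold higher (3.13 to 3.42), while its relative Ezh1 was at 175 and 108 CPM with no call. The ratios of the 2 EZH genes thus lay on opposite sides of 1, with Ezh2 alone called. Cbx7, a Polycomb reader, was at 284 and 69.4 CPM and the methylcytosine dioxygenase Tet3 at 315 and 119 CPM, and both were lower, but Tet3 was not called with the length and GC trend removed (log2 ratio −0.75).

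Several of the most extreme genes were not described with a list. Ltb4r1, the leukotriene B4 receptor that guides effector T cells into inflamed tissue, was at 0.502 CPM in central memory, 104 CPM in effector memory and 0 in naive cells, 207-fold higher (130.5 to 349). Emilin2, an extracellular matrix glycoprotein, was at 2.26, 310.0 and 0 CPM, 137-fold higher (110.2 to 173). Emp1, an epithelial membrane protein, was at 0.335, 56.8 and 0 CPM. Endou, an endoribonuclease, had 2 counts in central memory and 829 (25.9 CPM) in effector memory, a ratio of 464 (128 to 3840.2). All 4 were at or near 0 in naive cells. On the lower side, Vipr1, a receptor for vasoactive intestinal peptide, was at 43.2, 0.438 and 108 CPM, 98.8-fold lower (58.7 to 181). Nsg2 was at 154, 2.06 and 259 CPM, 74.7-fold lower (58.7 to 96.8). Cd7, an early T and NK lineage receptor, was at 75.1, 1.09 and 47.2 CPM, 68.6-fold lower (49.2 to 98.8). Art2b, an ADP-ribosyltransferase of the T cell surface, was at 229, 4.19 and 346 CPM. Dapl1, which is in the homing and naive list, was at 80.3, 3.13 and 70.9 CPM. These were high in both naive and central memory cells. Drc1, a component of the dynein regulatory complex of cilia, was the exception, at 45.9 CPM in central memory, 1.59 CPM in effector memory and 2.01 CPM in naive cells.

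The abundant genes that were lower included very long transcripts. Macf1, a giant linker of actin and microtubules, was at 3292 CPM in central memory, 745 CPM in effector memory and 3418 CPM in naive cells, 4.42-fold lower (4.36 to 4.48). Kmt2d, a histone H3 lysine methyltransferase of enhancers, was at 1583 and 414 CPM, with no call once the trend with length and GC content was removed (log2 ratio −0.84), and the chromatin remodeller Chd3 at 1331 and 243 CPM, 5.47-fold lower (5.35 to 5.61). The genes were ordered by their longest transcript and divided into 5 bins of about equal size. In the bin of the shortest (231 to 2032 bases), the median log2 ratio was 0.25, with 21.4% higher and 8.48% lower. In the bin of the longest (5264 to 123179 bases) it was −0.29, with 10.7% higher and 18.1% lower. The median ratio was lower in each bin of longer transcripts, and the part of transcript length in the single-gene values was not tested.

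**Figure D5:**
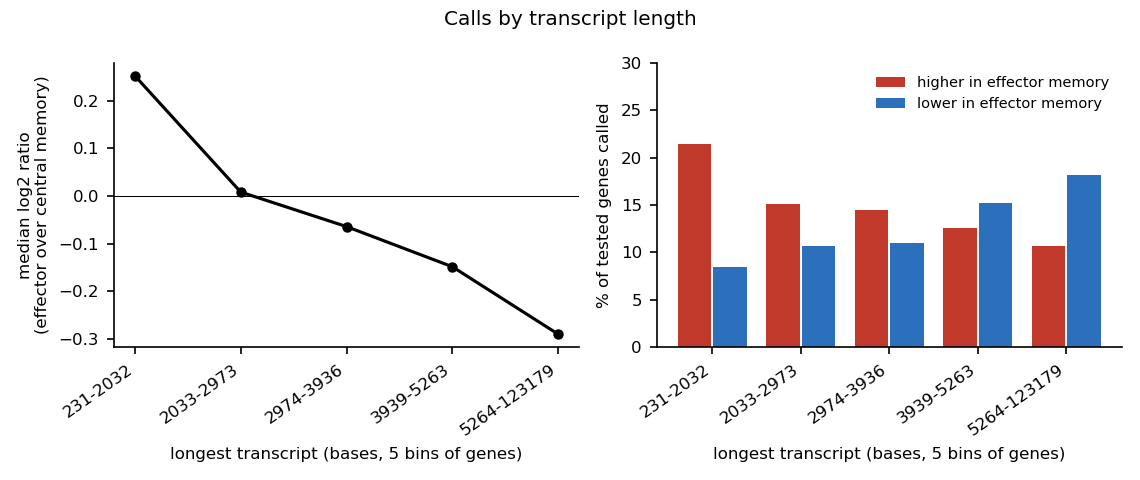
Median log2 ratio of effector memory over central memory (left) and percent of compared genes called higher (red) or lower (blue) in effector memory (right), in 5 bins of the genes ordered by longest transcript in bases. The median goes from 0.25 in the shortest bin to −0.29 in the longest, and the share called lower goes from 8.48% to 18.1%.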

How the data were processed

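RNA from 3 libraries was compared with the gene counts that the authors deposited, 1 column per library; per the submitters' processing notes these came from CASAVA, HISAT2 2.0.5 and featureCounts 1.5.0-p3 on mm10. Per the labels' protocols, RNA was purified with Trizol and libraries were made with an Illumina TruSeq RNA kit; strandedness and the annotation were not stated there, so reads of overlapping genes may be mixed. Counts were scaled to CPM with TMM factors over the 3 libraries (edgeR 4.0.16; factors 0.999, 0.967 and 1.04 for central memory, effector memory and naive), with Python 3.11.15 and SciPy 1.17.1 for exact intervals at 95%. Length, GC content and position came from GENCODE M21 (98.7% of names matched), promoters from RefSeq GRCm38.p6. The calling method was also run on simulated counts that held counting error only. That run cannot show how calls would hold across mice, sorts or library preparations.

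The comparison, the 45 gene lists and 12 marker lists were chosen with earlier results of these data known. Named genes were the 15 higher and 15 lower genes of at least 20 CPM whose interval bound nearest 1 was most extreme, the 10 largest CPM differences in each direction, up to 4 called genes per list plus those against its direction, 20 gene pairs and a set of fixed markers. A few genes that this rule names are not reported here. Unnamed gene models and receptor segments were left out of that rule. Marker genes, receptor segments and genes said to be named or looked up after their values were seen stand outside it. Alternatives changed the scaling, including DESeq2 1.42.0 size factors, the minimum level, the ratio and the correction for length and GC content. Because each group has 1 library, the intervals cover counting error only.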

Additional observations from a re-analysis of the deposited data

How the results depend on the processing

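No paired analysis was possible because each group has 1 library. Without a minimum level, 2830 genes were higher and 1980 lower. With a ratio of at least 1.5 the numbers were 2396 and 2528, and with a ratio of at least 4 they were 635 and 289. Under 5 other scalings, minima of 1 and 20 CPM and removal of the length and GC trend, both counts stayed within 1.5 times the values reported, and no call changed direction under any alternative. Total counts gave 1402 higher and 1378 lower, DESeq2 size factors 1608 and 1110. Medians of 6 lists changed sign under some settings; that of the MAPK phosphatases was 0.65 as reported, the others lay between −0.10 and 0.14. Inflammatory chemokine receptors went to −0.25 with no minimum and −0.26 at 20 CPM, chemokines and cytokines to 0.27 with no minimum and 0.30 at 1 CPM, and MHC class II to −0.35, −0.025 at 1 CPM and −0.083 without the trend. At 20 CPM, MAPK phosphatases went to −0.068, amino acid transporters to −0.054 and integrins to −0.70. The cause was not tested, beyond the fewer or more genes each minimum admits. With 1 library a group, no setting measures the spread between mice.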

Other observations

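Gene families chosen after their values were seen showed further blocks. Of 29 measured histone (Hist) genes, 28 were higher in effector memory and 1 lower, and the 28 passed the level through effector memory, where they had to be high. Hist1h1a, a linker histone, had 0 counts in central memory and 697 (21.8 CPM) in effector memory, which is at least 260.2-fold higher. Hist2h2be, the lower one, was at 12.2 and 5.41 CPM. Histone genes have many near-identical copies, so the reads of single genes are uncertain. Alpha and beta tubulin genes, the building blocks of microtubules, were higher in 8 of 9 members with a median log2 ratio of 1.52, and 14 of 27 kinesin (Kif) genes were higher and 4 lower.

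Numbered zinc finger (Zfp) genes were lower in 60 of 273 measured members (22%) and higher in 12 (4.40%), with a median log2 ratio of −0.48, against 12.8% and 14.8% of all compared genes. Histone lysine demethylase and methyltransferase (Kdm and Kmt) genes were lower in 6 of 25 and higher in 0, with a median longest transcript of 6363 bases. Proteasome (Psm) genes, with a median of 1851 bases, were higher in 6 of 38 and lower in 0. Their share higher, 15.8%, was near that of all compared genes. The Zfp median of 3744 bases lay in the middle length bin, in which 14.5% of genes were higher and 10.98% lower. The Kdm and Kmt median lay in the longest bin and the Psm median in the shortest. The kinesin genes, of which 14 of 27 were higher, had a median of 5593 bases, also in the longest bin. The part of transcript length in these families was not tested.

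The Y-linked genes Uty, Eif2s3y, Ddx3y and Kdm5d were present in both memory libraries and none was called, with a summed level of 362 CPM in central memory and 284 CPM in effector memory.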
